A study of Drosophila melanogaster with 18 samples.

Results

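Knockdown of the insulator protein BEAF was compared with control in the Drosophila melanogaster cell line Kc, which was derived from embryos, over every transcript of the array table. Members were the arrays titled BEAF and the arrays titled wild type, 4 of the 18 arrays of the series, and the values were the log2 signals of 16637 transcripts. BEAF cells had received double-stranded RNA against BEAF, and the control cells, labelled wild type, double-stranded RNA against beta-galactosidase. In all groups the double-stranded RNA was added daily for 3 days and total RNA was taken on day 4, converted to cDNA, labelled with Cy3 and hybridised to NimbleGen arrays of 1 colour. Each of the 9 groups held 2 arrays, described by the submitters as biological replicates of independent experiments. The other groups used here were BEAF+CTCF, BEAF+CP190, CTCF+CP190 and SuHw+CP190 double knockdowns and CTCF, CP190 and SuHw single knockdowns. Knockdown can be partial, all groups derive from 1 cell line, and the levels of the targeted genes were not analysed here.

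BEAF is a DNA-binding protein of Drosophila chromatin insulators, elements that separate neighbouring regulatory domains. It is known to bind clusters of short motifs close to the start sites of many broadly expressed genes, often beside borders between chromatin domains. CTCF and SuHw are other DNA-binding insulator proteins, and CP190 is a cofactor that is found with all of them. The question was which transcripts depend on BEAF, and whether the same transcripts move when BEAF is removed together with CTCF or CP190.

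The control, BEAF and CP190 arrays have the cell line written differently in the labels from the other 12 arrays. They are called the first set here, and the others the second set. BEAF against control, BEAF+CTCF against CTCF, and BEAF+CP190 against the mean of CTCF+CP190 and SuHw+CP190 each lie within 1 set, and no array is in more than 1 of them. They do share the estimate of each transcript's spread, which was fitted with limma over all 18 arrays. A transcript was called at a Benjamini-Hochberg adjusted p under 0.05, from a two-sided test over the 16637 transcripts. The table has no detection call, so low signals and background are not distinguished, and precision is limited by the number of arrays. Only 16 transcripts could be paired with a single gene symbol or annotation number, 28 matched several symbols and 16593 none, so most transcripts are given by their FlyBase identifier. Of the marker genes of Kc and other cells, 1 was among those named, LanA.

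BEAF knockdown moved many transcripts by a little and few by much. Of all transcripts, 41.7% were called in BEAF against control, 21.7% higher (3609) and 20.0% lower (3334). The median change over all transcripts was 0.03 on the log2 scale and the SD of the changes 0.363. From the lower to the upper quartile, changes ran from -0.16 to 0.21. The tails were unequal, with the 1st percentile at -1.17 and the 99th at 0.72, and the extremes at -2.56 and 2.65. Calls of at least 2-fold made up 2.06% of transcripts, 0.264% higher (44) and 1.79% lower (298). Changes of 2 or more on the log2 scale were 3 rises and 11 falls. Without BEAF replicate 1 the calls numbered 4316 (2021 higher, 2295 lower), and without BEAF replicate 2 the calls of at least 2-fold numbered 514 (79 higher, 435 lower).

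The size of the changes varied with signal level and was largest in the second dimmest of 4 classes. Signal was taken as the mean over all 18 arrays and divided into equal classes at 5.44, 9.29 and 11.73 on the log2 scale. Among the dimmest transcripts, 22.7% were called, against 53.5%, 50.5% and 40.2% in the next 3 classes in order of signal. Falls of at least 2-fold numbered 45, 183, 65 and 5 from the dimmest to the brightest class, and rises 0, 24, 18 and 2. The second class thus held most of both, and there 4.98% of transcripts changed by at least 2-fold, against 0.168% in the brightest. The spread between replicates was also widest in the second class for BEAF, where the root mean square SD was 0.139 in BEAF and 0.0964 in control arrays (log2 signal, n = 2 each). In the brightest class it was 0.0793 in BEAF and 0.0477 in control arrays. The median size of a change, of either sign, was 0.16, 0.312, 0.204 and 0.132 from dimmest to brightest.

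**Figure D1:**
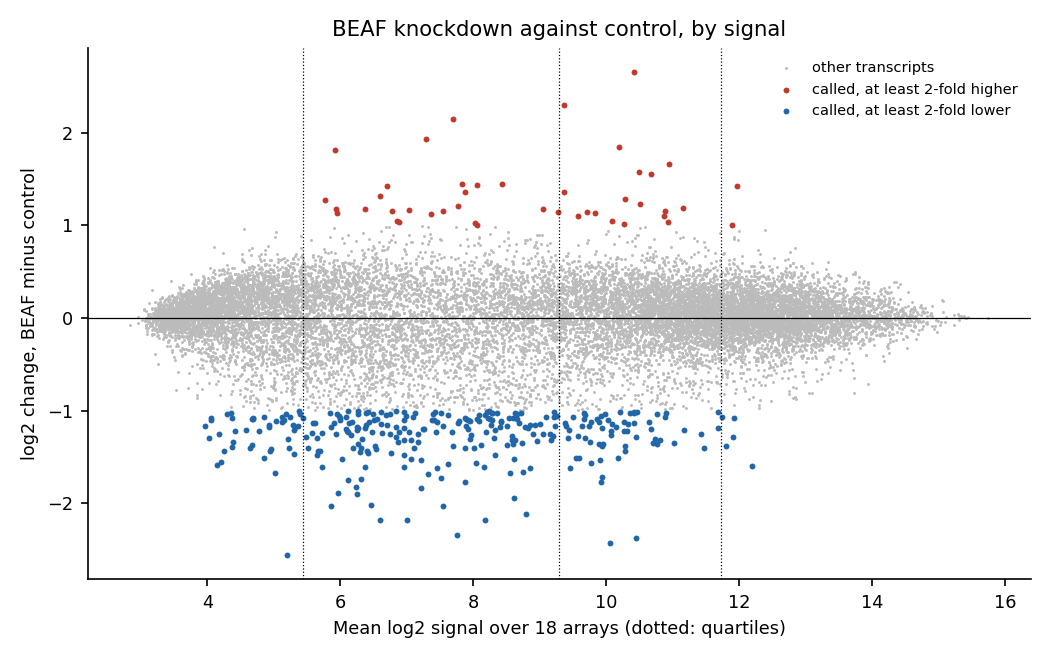
Each point is 1 transcript, with the mean log2 signal over 18 arrays on the horizontal axis and the log2 change of BEAF minus control (2 arrays each) on the vertical axis; dotted lines mark the quartiles of signal, red points are the 44 called rises and blue points the 298 called falls of at least 2-fold. Above the upper quartile of 11.73 lie 5 of the falls and 2 of the rises, and below it falls outnumber rises.

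The 2 arrays of a group lay close together. No transcript was 2-fold apart between the 2 BEAF arrays or between the 2 control arrays. The median distance between replicates was 0.091 in BEAF and 0.066 in control on the log2 scale. Among the 298 falls of at least 2-fold, BEAF arrays were 0.274 apart at the median and control arrays 0.072. Among the 44 rises these distances were 0.321 in BEAF and 0.086 in control. The BEAF arrays were thus farther apart in the transcripts that changed most, and replicate 1 was the more changed of the pair. Against control replicate 1, BEAF replicate 1 had 454 transcripts at least 2-fold lower and 91 at least 2-fold higher, and BEAF replicate 2 had 218 lower and 27 higher.

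The BEAF and control arrays did not overlap in 75.2% of all transcripts, with BEAF above in 41.8% and below in 33.4%. All 3334 transcripts called lower and 3608 of the 3609 called higher met this condition, so it adds little to the call. A stricter count asked that the nearest BEAF and control arrays be at least 2-fold apart. It held for 164 transcripts with BEAF lower (0.986%) and 23 with BEAF higher (0.138%). By class of signal, from dimmest to brightest, 21, 103, 37 and 3 lay lower and 0, 12, 10 and 1 higher.

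The 2 largest rises and the 2 largest falls differed in how well their arrays held together. FBtr0087442 had log2 signals of 11.58 and 11.84 in BEAF arrays, against 8.98 and 9.12 in control arrays. FBtr0089859 had 10.43 and 9.55 in BEAF arrays, against 7.64 and 7.75 in control arrays. It rose by 2.29 (SE 0.21; limma with Benjamini-Hochberg, adjusted p = 5.3e-06), with its BEAF arrays farther apart than those of any other named transcript. FBtr0083330, a dim transcript, had 4.51 and 4.29 in BEAF arrays, against 6.94 and 6.98 in control arrays. FBtr0081174 had 8.88 and 9.29 in BEAF arrays, against 11.52 and 11.50 in control arrays. It fell by 2.43 (SE 0.11; limma with Benjamini-Hochberg, adjusted p = 4.3e-08), a 5.37-fold decrease. The groups did not overlap in any of the 4.

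Other transcripts led within their class of signal. In the brightest, FBtr0074983 had 11.38 and 11.75 in BEAF arrays, against 13.09 and 13.23 in control arrays, and fell by 1.60 (SE 0.14; limma with Benjamini-Hochberg, adjusted p = 3.4e-06). FBtr0074336 had 12.70 and 12.43 in BEAF arrays, against 11.18 and 11.10 in control arrays, and rose by 1.42 (SE 0.079; limma with Benjamini-Hochberg, adjusted p = 2.2e-07). The lack of overlap was part of how these 2 were chosen. Their BEAF SDs, 0.26 and 0.19, were wider than the root mean square SD of 0.0793 over BEAF arrays in that class. In the second class FBtr0075697 had 8.11 and 7.68 in BEAF arrays, against 5.57 and 5.92 in control arrays, a 4.43-fold rise. Among the dimmest, where no rise reached 2-fold, FBtr0273344 had 5.25 and 5.30 in BEAF arrays, against 4.27 and 4.36 in control arrays, a 1.95-fold rise.

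The named transcripts changed by less than those above, which were chosen by size. Of the 16 with a single symbol or annotation number, 4 were called higher, 4 lower and 8 neither in BEAF against control. Of all transcripts 21.7% were called higher and 20.0% lower, so these counts are near the background. Of the 16, 14 were above the median signal. Among regulators of chromatin, kis encodes a chromatin remodeller of the trithorax group, and its signals were 12.72 and 12.61 in BEAF arrays, against 12.19 and 12.19 in control arrays. HDAC3, a histone deacetylase gene, had 12.11 and 11.98 in BEAF arrays, against 11.93 and 11.89 in control arrays, and was not called (limma with Benjamini-Hochberg, adjusted p = 0.10). SuUR, whose protein holds back replication of heterochromatin, changed by -0.09 (adjusted p = 0.30) and the histone H4 gene His4r by -0.13 (adjusted p = 0.18), neither called. Their BEAF and control arrays lay between 11.22 and 11.40 for SuUR, and between 13.04 and 13.25 for His4r. The nucleolar protein gene sle had 13.70 and 13.64 in BEAF arrays, against 13.32 and 13.38 in control arrays.

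Wdr24 and mio encode subunits of the same complex of nutrient signalling to TOR kinase. Wdr24 changed by 0.11 (limma with Benjamini-Hochberg, adjusted p = 0.24) and mio by -0.07 (adjusted p = 0.38), neither called. For rdx, an adaptor gene of a ubiquitin ligase, the change was -0.10 (limma with Benjamini-Hochberg, adjusted p = 0.48). Genes of transport and of the cell surface included 2 falls. NaPi-III, a phosphate transporter gene, had 12.62 and 12.73 in BEAF arrays, against 13.25 and 13.19 in control arrays. Fatp1, of fatty acid transport, had 11.96 and 11.99 in BEAF arrays, against 12.17 and 12.21 in control arrays. The membrane skeleton gene alpha-Spec had 13.52 and 13.43 in BEAF arrays, against 13.36 and 13.30 in control arrays, and its adjusted p, 0.05 when rounded (limma with Benjamini-Hochberg), lay just above the threshold. The laminin gene LanA, of the basement membrane, had 14.50 and 14.41 in BEAF arrays, against 14.28 and 14.28 in control arrays. Uba1, the gene of the ubiquitin-activating enzyme, had 14.38 and 14.40 in BEAF arrays, against 14.24 and 14.22 in control arrays. The transcript of CG16974 had 12.22 and 12.23 in BEAF arrays, against 12.42 and 12.41 in control arrays, and CG31178 changed by 0.08 and was not called. LanA, Uba1, Fatp1 and CG16974 were called with adjusted p between 0.020 and 0.023 (limma with Benjamini-Hochberg) and each lost its call without at least 1 of the arrays. HDAC3 passed without BEAF replicate 2, at 0.20 (adjusted p = 0.047). For alpha-Spec the adjusted p ran from 0.017 to 0.28 over the alternatives and was under the threshold in 5 of 9, at 0.10 to 0.19 in log2 change. Among the 28 transcripts with several symbols, 6 were called higher and 6 lower, also near the background, with changes between -0.23 and 0.56 on the log2 scale. Of the 28, 26 were above the median signal.

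**Figure D2:**
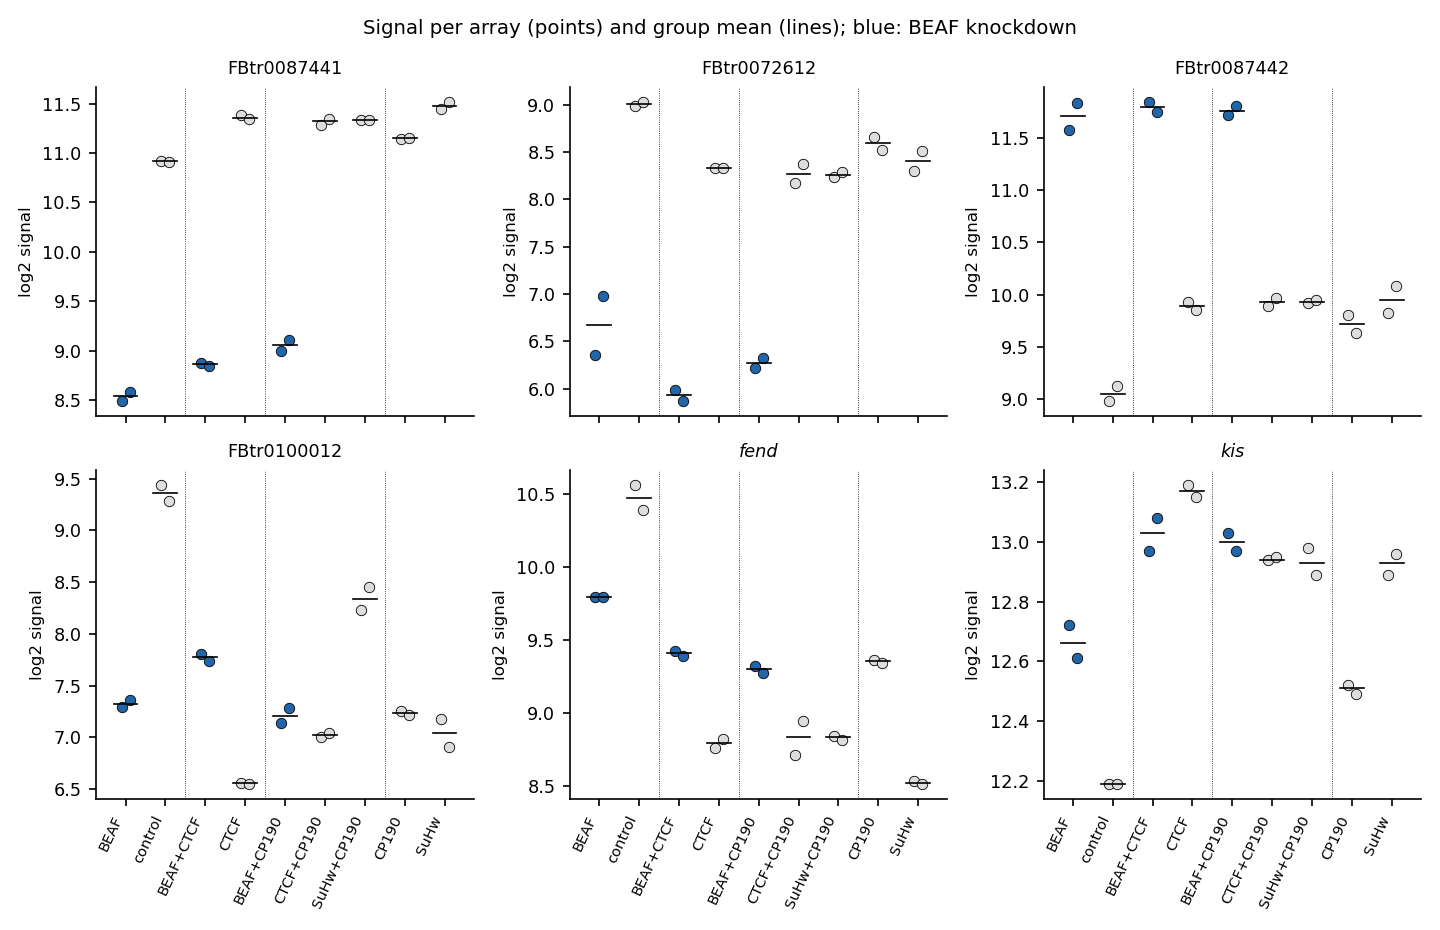
Log2 signal of 6 transcripts in every array (points) with the group mean (lines), BEAF knockdown arrays in blue and all others in grey; each panel has its own vertical axis, and dotted lines part the comparisons. FBtr0087441 and FBtr0072612 are low, and FBtr0087442 high, in all 6 BEAF knockdown arrays, while FBtr0100012 and fend are lower in BEAF than in control arrays and higher in BEAF+CTCF than in CTCF arrays, and kis is highest in CTCF arrays.

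BEAF+CTCF against CTCF repeated the BEAF knockdown in cells that also received double-stranded RNA against CTCF, with no array in common with BEAF against control. There 21.9% of transcripts were called, 11.9% higher (1976) and 10.0% lower (1666). Calls of 2-fold or more made up 0.823%, with 62 rises (0.373%) and 75 falls (0.451%). Above the median signal these were 6 rises and 29 falls. The changes were smaller, with an SD of 0.27 over all transcripts. Of the 3609 transcripts that rose in BEAF against control, 613 (17.0%) rose here and 152 (4.21%) fell. Of the 3334 that fell, 759 (22.8%) fell here and 480 (14.4%) rose. Leaving out any 1 of these 4 arrays left 2016 to 2099 called, with 779 to 846 shared in direction with BEAF against control. As a share of the BEAF+CTCF lists, the shared transcripts were 31.0% of the rises and 45.6% of the falls.

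The share of rises that kept their direction was higher among larger rises, as a description beside the background of 11.9%. Rises under 0.25 on the log2 scale were called higher again in 12.5% of 779, those of 0.5 to 1 in 25.2% of 671 and those of 1 to 1.5 in 60.0% of 35. Of the 44 rises of at least 2-fold, 28 (63.6%) rose in BEAF+CTCF against CTCF, 2 fell and 14 were not called. Their median change was 0.48 there, against 1.18 in BEAF against control. Of them 7 reached 2-fold in both.

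Of the 298 falls of at least 2-fold, 100 (33.6%) fell in BEAF+CTCF against CTCF, beside 10.0% of all transcripts. Another 42 (14.1%) rose, a share near the 11.9% of all transcripts called higher there, and 156 (52.3%) were not called. Their median change was -0.14 there, against -1.20 in BEAF against control, and 32 reached 2-fold in both. Without BEAF replicate 2, which raised the number of large changes to 514, 199 large changes kept their direction (50 higher, 149 lower). The share of falls called in the opposite direction was 10.6% for falls under 0.25. In the larger classes of size it was 13.6% to 18.2%, above that 11.9%, and was not tested against it. Among rises it was 5.71% or less in every class, beside 10.0% of all transcripts called lower. The share of rises with a fall in BEAF+CTCF and that of falls with a rise were not tested against each other.

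**Figure D3:**
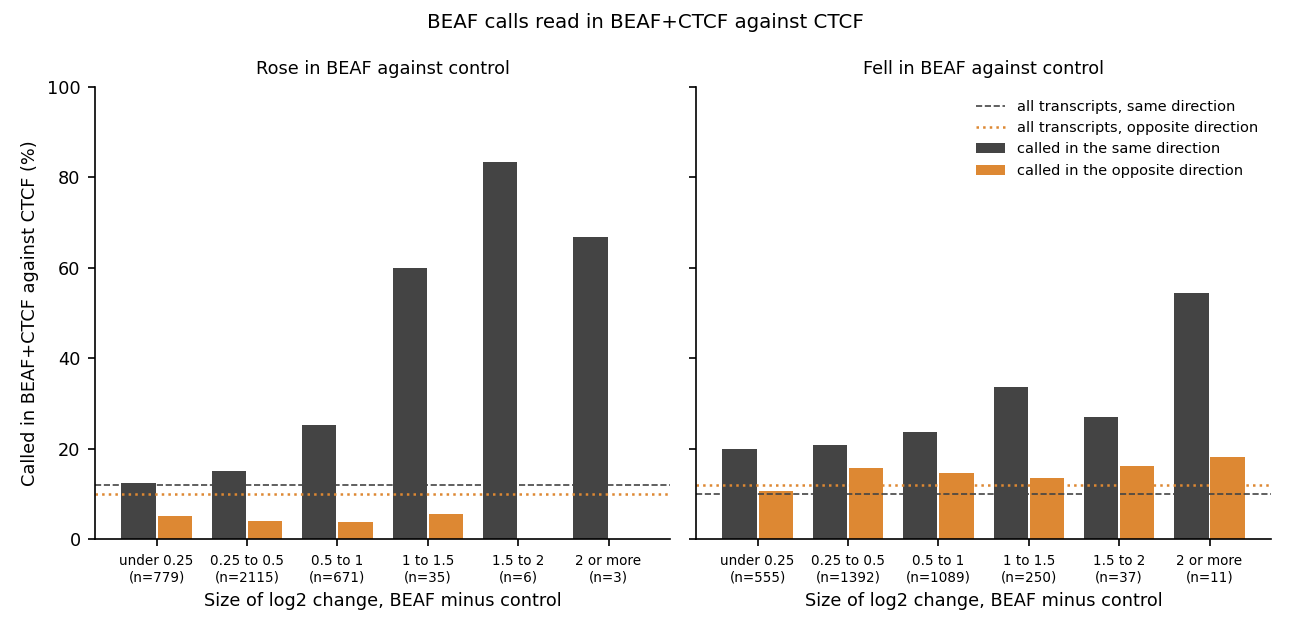
Transcripts that rose (left) or fell (right) in BEAF against control, grouped on the horizontal axis by the size of the log2 change, with the percentage called in BEAF+CTCF against CTCF on the vertical axis; dark bars are the same direction, orange bars the opposite one, and lines the share of all 16637 transcripts called in that direction. Rises of 1 to 1.5 were called higher again in 60.0%, and falls of the same size called lower again in 33.6%, with 13.6% called in the opposite direction.

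Signal level moved with these counts. From the dimmest to the brightest class, 9 of 45, 54 of 183, 32 of 65 and 5 of 5 falls of at least 2-fold fell again in BEAF+CTCF against CTCF. Of all transcripts in these classes 4.64%, 13.8%, 12.7% and 8.82% were called lower there. The median changes of the falls there were 0.04, -0.06, -0.35 and -1.58. Those that rose there numbered 4, 32, 6 and 0, and of all transcripts 4.38%, 20.3%, 16.3% and 6.61% were called higher. Above the median signal, 37 of 70 falls (52.9%) and 14 of 20 rises (70.0%) kept their direction. Across all transcripts the changes in the 2 comparisons correlated at a Pearson r of 0.194 (n = 16637). Across those above the median signal r was 0.343 (n = 8318), and transcripts are not independent replicates.

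The large falls were also low in arrays without BEAF knockdown. The 298 transcripts had median log2 signals of 7.23 and 7.50 in BEAF arrays, against 8.80 and 8.79 in control arrays. In the BEAF+CTCF arrays the medians were 7.13 and 7.14, against 7.23 and 7.27 in CTCF arrays. CTCF arrays were thus already about as low as BEAF arrays, with a mean below control in 275 of the 298 and below BEAF in 170. The control arrays helped choose the 298, so a mean below control is partly built in for any group. The mean was below control in 284 of the 298 for CP190 and in 269 for SuHw. CTCF and control arrays lie in different sets, so the set and CTCF knockdown cannot be told apart. The SuHw arrays, without either knockdown, had medians of 7.19 and 7.30.

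**Figure D4:**
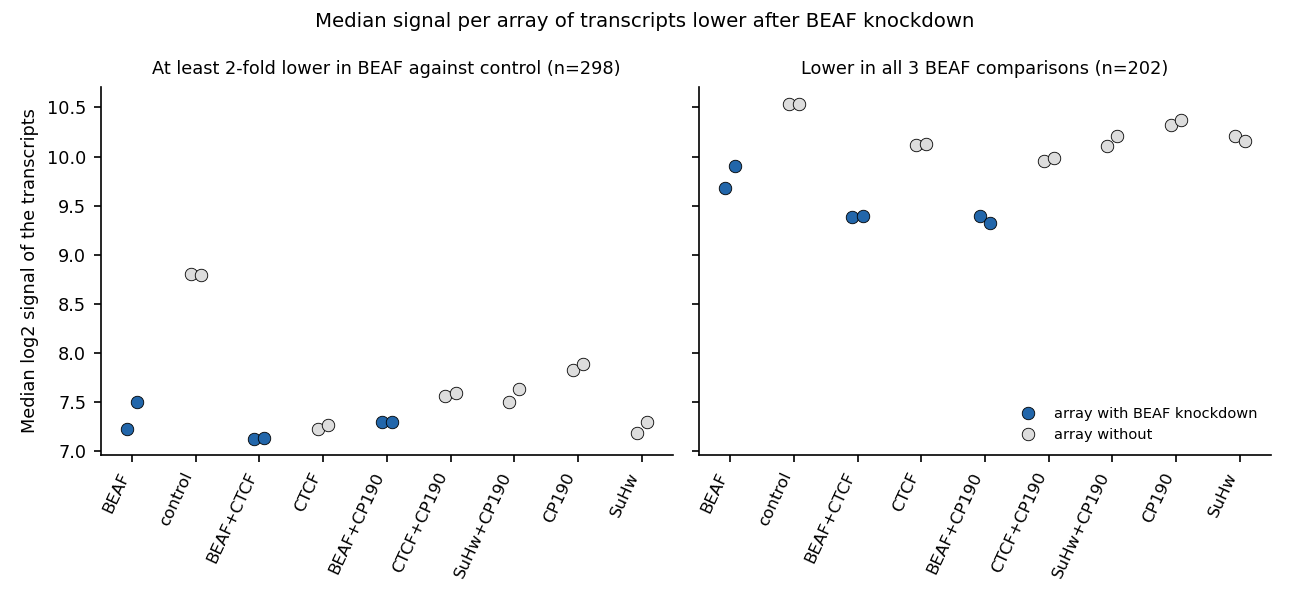
Median log2 signal per array of the 298 transcripts at least 2-fold lower in BEAF against control (left) and of the 202 called lower in all 3 BEAF comparisons (right), with BEAF knockdown arrays in blue and all others in grey. On the left every array outside control sits at 7.89 or below, against 8.79 or more in control, and on the right the 6 BEAF knockdown arrays sit at 9.90 or below, against 9.95 or more in the other arrays. BEAF and control arrays chose the 298. All arrays except those of CP190 and SuHw took part in choosing the 202, so the separation on the right is largely built in.

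A count chosen after the data were seen kept the transcripts whose SuHw mean lay within 0.5 of control on the log2 scale, which were 12082 of 16637. These included 45 of the 298 falls, of which 31 (68.9%) fell and 2 rose in BEAF+CTCF against CTCF. In such transcripts overall 8.29% were called lower there and 10.5% higher. The other 253 falls comprised 69 (27.3%) that fell again and 40 (15.8%) that rose. Over all 16637 transcripts, inside and outside the limit, 10.0% were called lower there and 11.9% higher. In counts, 1976 were called higher and 1666 lower, of which 1270 and 1002 lay inside the limit. The shares over all transcripts outside the limit are therefore above 11.9% higher and 10.0% lower. They were not computed, so neither the 27.3% nor the 15.8% is read as a trait of these falls. For rises, 11 of 12 (91.7%) kept their direction within that limit and 17 of the other 32 (53.1%). The 53.1% has no share over all transcripts outside the limit beside it either. The limit uses the control arrays, which also chose the falls and rises, so a higher share inside it is partly built in. The shares inside and outside the limit were not tested against each other. SuHw and control arrays lie in different sets, so the set and SuHw knockdown cannot be told apart.

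BEAF+CP190 against the mean of CTCF+CP190 and SuHw+CP190 gave a further comparison inside the second set. It also carries any effect of CTCF or SuHw knockdown with the opposite sign. Of all transcripts 6.97% were called, 3.91% higher (651) and 3.06% lower (509). Calls of 2-fold or more made up 0.409%, with 8 rises (0.0481%) and 60 falls (0.361%). The balance of all calls turned to more falls above the median signal (235 higher, 293 lower), with quantile normalization (561 higher, 586 lower) and with only the groups compared in the fit (328 higher, 337 lower). Without BEAF+CP190 replicate 1, 655 transcripts were called, and without its replicate 2, 419 (137 higher, 282 lower). Among the 298 large falls of BEAF against control, 73 (24.5%) fell here and 8 (2.68%) rose. Among the 44 large rises, 11 (25.0%) rose. The largest fall of this comparison shows the limit of its design. FBtr0077686 had 5.71 and 5.66 in BEAF+CP190 arrays, against 5.63 and 6.13 in CTCF+CP190 and 10.73 and 10.63 in SuHw+CP190 arrays, so it was high in the SuHw+CP190 group, and its change in BEAF against control was not called (0.24; limma with Benjamini-Hochberg, adjusted p = 0.18).

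In all 3 comparisons 95 transcripts rose (0.571% of all) and 202 fell (1.21%). The falls had median changes of -0.64 in BEAF against control, -0.68 in BEAF+CTCF against CTCF and -0.50 in BEAF+CP190 against the other CP190 doubles. The rises had 0.42, 0.49 and 0.35 in the same order. The shared falls were brighter than the large falls as a whole, with 124 of 202 above the median signal, against 70 of 298. Their median log2 signals were 9.68 and 9.90 in BEAF arrays, against 10.53 and 10.54 in control arrays. They were 9.38 and 9.40 in BEAF+CTCF arrays, against 10.12 and 10.13 in CTCF arrays. The same arrays chose these falls, so the lower medians are built in. At least 2-fold in each comparison were 18 falls and 1 rise, FBtr0087442. The 18 falls had medians of -1.35, -1.51 and -1.57 in the 3 comparisons in the same order.

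Reading the lists in the other direction gave higher shares for falls. Of the 75 transcripts at least 2-fold lower in BEAF+CTCF against CTCF, 55 (73.3%) fell in BEAF against control and 2 rose. Of the 62 at least 2-fold higher, 23 (37.1%) rose and 15 (24.2%) fell. Transcripts called lower in both double comparisons numbered 263, of which 202 (76.8%) fell in BEAF against control and 8 rose. Of the 317 called higher in both, 95 (30.0%) rose and 94 (29.7%) fell, beside 21.7% and 20.0% of all transcripts. The 23 at least 2-fold lower in both included 22 (95.7%) that fell in BEAF against control.

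**Figure D5:**
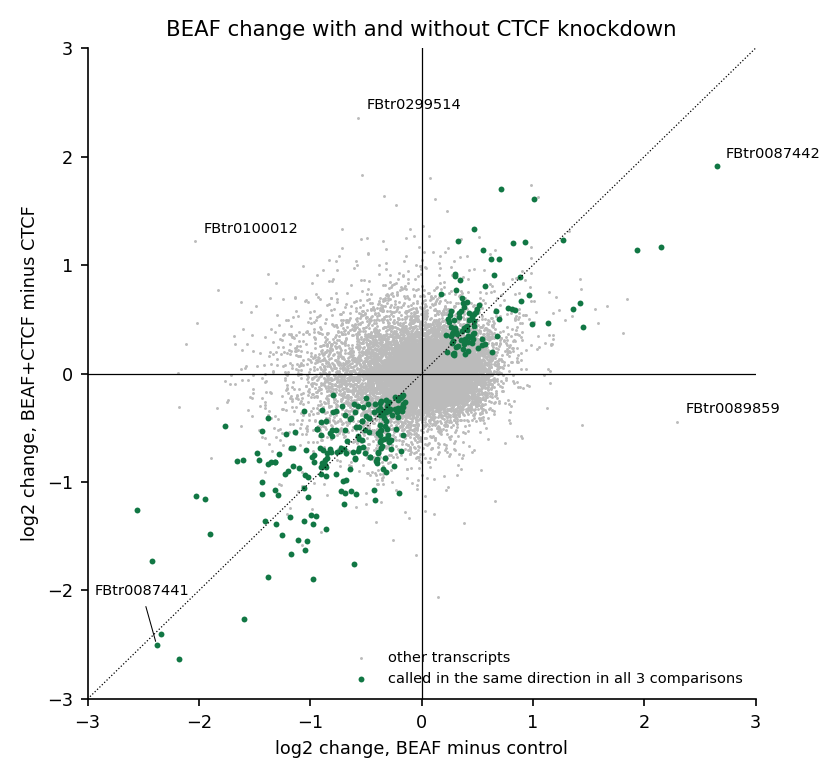
Each point is 1 transcript, with the log2 change of BEAF minus control on the horizontal axis and of BEAF+CTCF minus CTCF on the vertical axis (2 arrays a group); green points are the 95 rises and 202 falls called in the same direction in all 3 comparisons, and the dotted line marks equal change. Most transcripts lie within a cloud around 0 with r = 0.194, while FBtr0087441 (at -2.38 and -2.51) and FBtr0087442 (at 2.65 and 1.91) lie on the same side of 0 in both, and FBtr0100012, FBtr0299514 and FBtr0089859 on opposite sides.

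All 6 BEAF knockdown arrays lay below all 12 other arrays in 90 transcripts (0.541%) and above them in 35 (0.21%). Of the 90, 87 were called lower in BEAF against control and 61 were above the median signal. The BEAF and control arrays helped choose the 90, so the direction of those calls is built in and they are no independent support. A distance of at least 2-fold between the nearest arrays was met by 1 transcript with BEAF knockdown higher (0.00601%) and 4 with it lower (0.024%). FBtr0087442 lay between 11.58 and 11.85 in the 6 BEAF knockdown arrays, against 8.98 to 10.08 in the 12 others. FBtr0087441 lay between 8.49 and 9.11 in the 6, against 10.91 to 11.52 in the 12. These groups were 1.49 and 1.79 apart at their nearest arrays on the log2 scale.

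The transcripts of the targeted BEAF gene could not be identified, so whether any of these 5 transcripts belongs to it was not tested. FBtr0087441 stood the farthest from the other arrays among these 5 transcripts. It had 8.49 and 8.58 in BEAF arrays, against 10.92 and 10.91 in control arrays, and fell by 2.38 (SE 0.057; limma with Benjamini-Hochberg, adjusted p = 9.9e-11). It had 8.87 and 8.84 in BEAF+CTCF arrays, against 11.39 and 11.34 in CTCF arrays, and fell by 2.51. In BEAF+CP190 it had 9.00 and 9.11, against 11.28 and 11.35 in CTCF+CP190 and 11.33 and 11.33 in SuHw+CP190 arrays, and fell by 2.27. The difference between the falls with and without CTCF knockdown was -0.13 (SE 0.081; limma with Benjamini-Hochberg, adjusted p = 0.26), which was not called. FBtr0072612 lay between 5.87 and 6.98 in the 6 BEAF knockdown arrays, against 8.17 to 9.03 in the others. The remaining pair, FBtr0083049 and FBtr0083050, fell outside the rule for naming transcripts and was singled out after its values were seen. FBtr0083049 had 9.66 and 9.92 in BEAF arrays, against 11.05 and 11.15 in control arrays, and FBtr0083050 had 10.78 and 10.94 in BEAF arrays, against 12.02 and 12.07 in control arrays. Their changes were -1.31 and -1.18 in BEAF against control, -1.38 and -1.32 in BEAF+CTCF against CTCF, and -1.55 and -1.33 in BEAF+CP190.

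The largest fall in BEAF+CTCF against CTCF was that of another transcript. FBtr0074827 had 7.61 and 8.09 in BEAF arrays, against 10.03 and 10.04 in control arrays, and fell by 2.18. It had 5.68 and 5.80 in BEAF+CTCF arrays, against 8.38 and 8.36 in CTCF arrays, and fell by 2.63. The difference of -0.45 between these falls was not called (SE 0.19; limma with Benjamini-Hochberg, adjusted p = 0.10). The rise of FBtr0081849 was 1.32 (SE 0.20) in BEAF against control and 1.31 in BEAF+CTCF against CTCF, with a difference of -0.01 (SE 0.28) that was not called. In BEAF+CP190 its change was 0.21 (limma with Benjamini-Hochberg, adjusted p = 0.58) and not called.

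Whether the BEAF change differed with and without CTCF knockdown was tested by the interaction, BEAF+CTCF minus CTCF minus BEAF plus control. It was called in 28.8% of transcripts, with the BEAF change more positive in CTCF-depleted cells in 15.2% (2534) and more negative in 13.6% (2262). That balance turned above the median signal (1283 more positive, 1665 more negative), with quantile normalization (2452 and 2526) and with only the groups compared in the fit (2893 and 2920). The comparison without CTCF knockdown lies in the first set and the one with it in the second, so an interaction and a difference between the sets in the BEAF change cannot be told apart. Of the 298 large falls, 255 (85.6%) had a less negative or reversed change in CTCF-depleted cells, at a median difference of 1.12. Of the 44 large rises, 39 (88.6%) had a less positive one, at a median of -0.80. These counts use the BEAF and control arrays that chose the lists. Among the 202 shared falls the interaction was called in 62, and among the 18 large ones in 4.

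Among the largest differences, FBtr0100012 and FBtr0299514 were called in opposite directions, while FBtr0083277 and FBtr0089859 were called in only 1 of the 2 comparisons. FBtr0100012 had 7.29 and 7.36 in BEAF arrays, against 9.44 and 9.28 in control arrays, and fell by 2.04. In BEAF+CTCF it had 7.81 and 7.74, against 6.56 and 6.55 in CTCF arrays, and rose by 1.22. The difference of 3.25 was called (SE 0.13; limma with Benjamini-Hochberg, adjusted p = 8.5e-08), and control arrays stood above those of every other group. FBtr0299514 had 6.08 and 6.08 in BEAF arrays, against 6.81 and 6.49 in control arrays, and in BEAF+CTCF 7.68 and 7.65, against 5.25 and 5.36 in CTCF arrays. Its fall by 0.57 in the first lost its call without control replicate 1, at -0.41 (limma with Benjamini-Hochberg, adjusted p = 0.088). FBtr0083277 was low in 1 group alone, with 9.99 and 9.89 in BEAF+CTCF arrays, against 11.94 and 12.07 in CTCF arrays and 11.52 or more in all others. FBtr0089859, the large rise with the widest BEAF arrays, had 10.14 and 10.15 in BEAF+CTCF arrays, against 10.63 and 10.54 in CTCF arrays, a change of -0.44 (limma with Benjamini-Hochberg, adjusted p = 0.17).

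Among the named genes 1 kept its call and 1 turned round. NaPi-III had 13.14 and 13.14 in BEAF+CTCF arrays, against 13.37 and 13.39 in CTCF arrays, and fell by 0.23 there (SE 0.054; limma with Benjamini-Hochberg, adjusted p = 0.0084), against 0.55 in BEAF against control. In BEAF+CP190 its change was -0.14 (adjusted p = 0.11), not called. The gene fend had 9.79 and 9.79 in BEAF arrays, against 10.56 and 10.39 in control arrays. It had 9.42 and 9.39 in BEAF+CTCF arrays, against 8.76 and 8.82 in CTCF arrays, and rose by 0.61 (SE 0.074; limma with Benjamini-Hochberg, adjusted p = 9.4e-05), and it rose by 0.47 in BEAF+CP190 against the other CP190 doubles. Control arrays had the highest fend signals of the series, and SuHw arrays, at 8.53 and 8.51, the lowest. For kis the change in BEAF+CTCF against CTCF was -0.14 (limma with Benjamini-Hochberg, adjusted p = 0.11), with 12.97 and 13.08 in BEAF+CTCF arrays, against 13.19 and 13.15 in CTCF arrays. The changes of sle (-0.03), LanA (-0.03), Uba1 (-0.05) and Fatp1 (0.02) there were not called.

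Comparisons that reuse the control arrays are given side by side only. For the 298 large falls, median changes against control were -1.66 in BEAF+CTCF, -1.49 in BEAF+CP190, -0.91 in CP190 and -1.20 in BEAF. For the 44 large rises they were 1.40, 1.23, 0.82 and 1.18 in the same order, and over all transcripts 0.04, 0.02, 0.01 and 0.03. Each of these changes subtracts the control arrays that helped choose both lists, so a shift in the chosen direction is partly built in. The doubles against control cross the sets, so what the sets and what the knockdowns contribute cannot be told apart there. The CP190 arrays stand in the first set and allow a comparison with another knockdown in place of control, chosen after the data were seen. Against CP190, 10.8% of transcripts were called in BEAF arrays, 5.73% with a rise and 5.09% with a fall. Calls of 2-fold or more made up 0.409%, with 20 rises (0.12%) and 48 falls (0.289%). The counts that follow set the same BEAF arrays that chose the lists against CP190, so a shift in the chosen direction is built in and they are no independent support. Of the 298 large falls, 121 (40.6%) were also lower than CP190 and 14 higher, and of the 44 large rises 26 (59.1%) were higher. Of the 202 falls shared by all 3 comparisons, 132 (65.3%) were lower than CP190, and so were all 18 of the large ones. In FBtr0087441 the BEAF arrays stood at 8.49 and 8.58, against 11.14 and 11.15 in CP190 arrays, while fend was higher in BEAF than in CP190 arrays by 0.44 (SE 0.074; limma with Benjamini-Hochberg, adjusted p = 0.0020).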

How the data were processed

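The deposited table gives a log2 signal for 16637 transcripts on each array. The authors used RMA and Partek, per the submitters' processing notes, with version numbers not given in the sources used here. In RMA the software subtracts background, brings array distributions together and combines probes. Columns were matched to samples by name. No normalization or filter was added. Group means were estimated from the 18 arrays jointly with limma 3.58.1 (R 4.3.3; lmFit, eBayes; 9 residual and 3.68 prior degrees of freedom). Calls needed a Benjamini-Hochberg adjusted p under 0.05, two-sided, and at least 2-fold means an absolute log2 change of 1 or more. The fit was tested on simulated data with known changes. Tables and plots used Python 3.11.15, numpy 2.4.6, pandas 2.3.3 and matplotlib 3.10.9. Names came from synonyms of the RefSeq gene table (17872 genes, Release 6). The members and lists were chosen with earlier results of these data known. Transcripts named were those with 1 symbol, the largest called rises and falls of each comparison, and the largest without overlap in each of 4 classes of signal. Lists of genes and promoter motifs were not analysed here, since fewer members than needed could be named. Tried instead were the compared groups fitted alone, a replicate block, a variance trend, quantile normalization, transcripts above the median signal and single arrays left out. P-values rest on 1 spread per transcript, pooled between the 2 arrays of each group over all 9 groups and adjusted by eBayes. They do not measure the spread of the BEAF and control arrays alone.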

Additional observations from a re-analysis of the deposited data

Results flagged for a closer look

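By the interaction test (limma with Benjamini-Hochberg, adjusted p under 0.05), 4796 transcripts (28.8%) differed in the BEAF change with and without CTCF knockdown. So did 8 of the 16 named transcripts. Of the 16, 14 were above the median signal, where a fit of such transcripts alone called 2948 of 8318. The 8 of 16 were not tested against these shares and are not read as a trait of the named genes. Values are the BEAF change in CTCF-depleted cells minus that without CTCF knockdown, on the log2 scale. The sets of arrays and the interaction cannot be told apart.

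The difference was more positive for fend (1.30), His4r (0.54), NaPi-III (0.31) and CG16974 (0.25). It was more negative for kis (-0.61), sle (-0.35), alpha-Spec (-0.23) and Uba1 (-0.20). For fend and kis the 2 BEAF knockdown groups lay between control and CTCF in level. For His4r the change was not called without CTCF knockdown (-0.13) and was 0.40 with it, with 13.81 and 13.78 in BEAF+CTCF arrays, against 13.35 and 13.43 in CTCF arrays.

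Among transcripts given by identifier, the difference was positive for FBtr0100012 (3.25), FBtr0299514 (2.93), FBtr0083330 (1.30), FBtr0084288 (1.24) and FBtr0081174 (0.70). It was negative for FBtr0089859 (-2.74), FBtr0083277 (-2.21), FBtr0075697 (-0.98), FBtr0087442 (-0.74), FBtr0074983 (-0.66) and FBtr0074336 (-0.55). FBtr0087442, FBtr0083330, FBtr0081174, FBtr0075697, FBtr0074983 and FBtr0074336 kept the direction of their change in both cell states and differed in its size. FBtr0084288 had 9.01 and 9.10 in BEAF arrays, against 9.58 and 9.63 in control arrays, and 7.84 and 7.90 in BEAF+CTCF arrays, against 7.22 and 7.15 in CTCF arrays, so its direction turned.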

How the results depend on the processing

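Among results of named transcripts under alternatives, 260 kept direction and side of the threshold, 19 lost a call, 6 gained one and 0 changed sign. Above the median signal, with fewer transcripts counted, BEAF against control had 4310 calls and 90 of at least 2-fold (20 higher, 70 lower), BEAF+CTCF against CTCF 2323 and 35 (6 higher, 29 lower), shared large changes 54, BEAF+CP190 against the other CP190 doubles 528 and the interaction 2948. A fit of only the groups compared gave 665 calls in that BEAF+CP190 comparison, and the cause was not tested. Chosen after seeing the data, BEAF against CP190 in place of control gave 1800 calls and 68 of at least 2-fold, and transcripts with SuHw within 0.5 of control 891 shared calls and 42 shared large ones. Leaving out 1 array gave 4316 to 6121 calls and 236 to 514 large changes in BEAF against control, 2016 to 2099 and 133 to 150 in BEAF+CTCF against CTCF, 779 to 1386 shared calls and 96 to 199 shared large ones, 419 to 1057 in the BEAF+CP190 comparison and 3247 to 4542 for the interaction. The balance of 3609 rises and 3334 falls turned to more falls when control replicate 1, control replicate 2 or BEAF replicate 1 was left out. It did not turn without BEAF replicate 2. Same-numbered arrays of different groups deviated together with r from -0.199 to 0.453, above 0.1 in 10 of 36 pairs of groups and at -0.028 for BEAF and control, so the numbers do not pair BEAF and control. Among the BEAF+CP190 comparison's groups r was 0.302 for BEAF+CP190 and CTCF+CP190, 0.132 for BEAF+CP190 and SuHw+CP190 and -0.108 for CTCF+CP190 and SuHw+CP190, and for BEAF+CTCF and CTCF it was -0.055, so not every pair was above 0.1 there either. A replicate block gave 6972 and 342 in BEAF against control, 3650 and 137 in BEAF+CTCF against CTCF, 1376 and 130 shared, 1184 in the BEAF+CP190 comparison and 4814 for the interaction. Low signals have no detection call and limit folds near the low end.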
